A study of Mus musculus with 4 samples.

Results

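*E2f3*, *Gmnn*, *Dek*, *Cks2*, *Ccnb1* and *Cdk7* are cell-cycle regulators that lie on mouse chromosome 13, and their RNA levels were followed in 3 Morc3 rescue clones and 1 wild-type culture of mouse embryonic stem (ES) cells. They were chosen by their CPM in these same libraries, as cell-cycle genes of this chromosome that were higher in clones 3C and 3M and not in clone 3D, so the levels below are a description and carry no test. They are 6 of the 24054 genes listed, all 6 passed the low-count filter that left 13267 genes, and 512 of the 903 genes listed on chromosome 13 also passed it. The wild-type library came from the line wt26. The rescue clones (cell lines T131-3C, T131-3D and T131-3M, here 3C, 3D and 3M) were each 1 clone, isolated under puromycin from 1 Morc3 ko line after transfection with a PiggyBac transposon vector carrying Morc3, so all 3 share the gene disruption, the transposon and the selection, which the wild-type line lacks. All cells were feeder-independent and were grown on gelatin in medium with serum and LIF. Total RNA was depleted of ribosomal RNA and made into directional libraries with the same kits. Nothing states that the clones were cultured at the same time, and DNA copy number was not measured in the files used here.

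The cell cycle is driven by cyclin-dependent kinases (CDKs), which are active only when bound to a cyclin. E2F transcription factors, held back by the retinoblastoma pocket proteins, turn on the genes needed to enter S phase, and geminin keeps origins from being licensed again once they have fired. Cyclin B1 with CDK1 brings cells into mitosis, and CDK7 with cyclin H and MAT1 activates the other CDKs and is also a kinase of the general transcription factor TFIIH. ES cells are known for a short G1 phase and a large share of cells in S phase. In RNA from whole cultures, a larger share of cells in the phase that expresses a gene and more RNA per cell cannot be told apart.

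The gene counts of the wild-type library summed to 18789457, and those of the clones to 13620914 at the lowest and 15479190 at the highest. Unmapped pairs made up 14.5% of the wild-type library and 21.0% to 23.0% of each clone's, and their part in the results below was not tested. *Morc3*, on chromosome 16, was at 655, 496 and 609 CPM (gene counts scaled to library size by TMM) in 3C, 3D and 3M against 161 CPM in wild type, with a log2 fold change of 1.87 (SE 0.17, Benjamini-Hochberg adjusted p = 0.11 in edgeR). All 7 ES cell markers examined passed the filter, at a summed level between 3537 and 3717 CPM in the 4 libraries. Summed markers of endoderm stayed between 1.85 and 4.23 CPM, of mesoderm between 0.687 and 1.42 CPM, of neural cells between 44.6 and 78.2 CPM with the highest value in wild type, and of fibroblasts between 20.3 and 44.9 CPM with *Dcn* at 0 in every library. A single gene reached 73.8 CPM among the neural markers and 43.7 CPM among the fibroblast markers, so 1 gene made up most of each of these 2 highest sums.

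Transcription of many cell-cycle genes is timed by short promoter words. These are an E2F site for G1/S genes and a cell cycle homology region (CHR) with CCAAT boxes for G2/M genes. The promoters of 3 of the genes are shown as examples, and whether such words bear on the levels below was not tested. RefSeq (GRCm38.p6, the assembly of mm10) gave a window from 250 bases before to 50 bases after the start for 5 of the 6 genes. The E2F words searched were TTTCCCGC, TTTCGCGC, TTTGCCGC and TTTGGCGC, the CHR words were TTTGAA and TTTAAA, and the CCAAT word was CCAAT, each on both strands. Capitals mark their matches, and each sequence is written 5′ to 3′ along the gene. The *E2f3* window is chr13:29986014-29986313 (minus strand), that of *Cks2* is chr13:51644982-51645281 (plus strand) and that of *Ccnb1* is chr13:100786437-100786736 (minus strand).
E2f3: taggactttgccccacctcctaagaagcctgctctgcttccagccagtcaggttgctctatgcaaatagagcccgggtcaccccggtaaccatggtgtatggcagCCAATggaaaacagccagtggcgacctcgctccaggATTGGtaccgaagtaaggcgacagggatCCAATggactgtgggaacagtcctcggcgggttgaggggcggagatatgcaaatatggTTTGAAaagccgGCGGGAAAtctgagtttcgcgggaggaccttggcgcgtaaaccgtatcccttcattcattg
Cks2: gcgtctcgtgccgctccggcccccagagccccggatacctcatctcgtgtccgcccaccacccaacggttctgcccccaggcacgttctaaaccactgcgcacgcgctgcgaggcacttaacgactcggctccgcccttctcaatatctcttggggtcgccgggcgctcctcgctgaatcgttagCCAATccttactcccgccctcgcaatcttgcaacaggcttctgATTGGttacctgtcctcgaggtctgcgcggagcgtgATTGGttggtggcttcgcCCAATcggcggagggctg
Ccnb1: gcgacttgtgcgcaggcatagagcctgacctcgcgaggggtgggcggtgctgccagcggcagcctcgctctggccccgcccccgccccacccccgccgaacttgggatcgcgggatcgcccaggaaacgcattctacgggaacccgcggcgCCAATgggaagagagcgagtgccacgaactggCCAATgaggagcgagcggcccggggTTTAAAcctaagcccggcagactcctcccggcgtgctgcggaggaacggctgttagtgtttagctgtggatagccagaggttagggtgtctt

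The *E2f3* window held 1 E2F word, read on the other strand as GCGGGAAA and beginning 11 bases before the start, with TTTGAA 23 bases before it and 3 CCAAT words. The *Ccnb1* window had TTTAAA 42 bases before the start and CCAAT words 67 and 99 bases before it, and no E2F word. The *Cks2* window held 4 CCAAT words and neither of the other 2 kinds. *Dek* had TTTGAA and 1 CCAAT word, *Cdk7* had TTTAAA alone, and a further *E2f3* window at chr13:29984342-29984641 (minus strand) held none of the words. Of 32851 RefSeq windows of the same length, 2.26% held an E2F word, 27.6% a CHR word, 37.4% a CCAAT word and 10.7% both of the last kinds, so a match to the shorter words is common. *E2f3*, *Dek* and *Ccnb1* each held both a CHR word and a CCAAT word, and no word was shared by all 5 genes with a window.

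All 6 genes lay above wild type in 3C and in 3M and near it in 3D. In 3C they stood between 1.31 times (*Dek*) and 1.58 times (*Cdk7*) the wild-type CPM, in 3M between 1.35 times (*Gmnn*) and 1.65 times (*E2f3*), and in 3D between 0.983 times (*Dek*) and 1.08 times (*E2f3*). An exact 95% interval on the clone's and the wild-type count, which covers counting error only, left out the wild-type level for 6 of 6 genes in 3C and in 3M and for 0 of 6 in 3D. That outcome was largely set by the choice of genes on these same counts, and the share over other genes was not computed. With the single wild-type library assumed to vary as the clones do, edgeR's test over all 3 clones called 0 of the 6 genes at an adjusted p of 0.01, where it called 0.00754% of all genes tested (1 gene). None of the 6 had an unadjusted p under 0.05, and DESeq2 also called 0 (2 with an unadjusted p under 0.05), where it called 0.691% of the 9409 genes it gave an adjusted p. Without 3D, edgeR called 6 of 6, where it called 3.17% of all genes tested (2.51% higher in the clones) and 27.5% of those of chromosome 13, and the rule had already used these values.

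**Figure D1:**
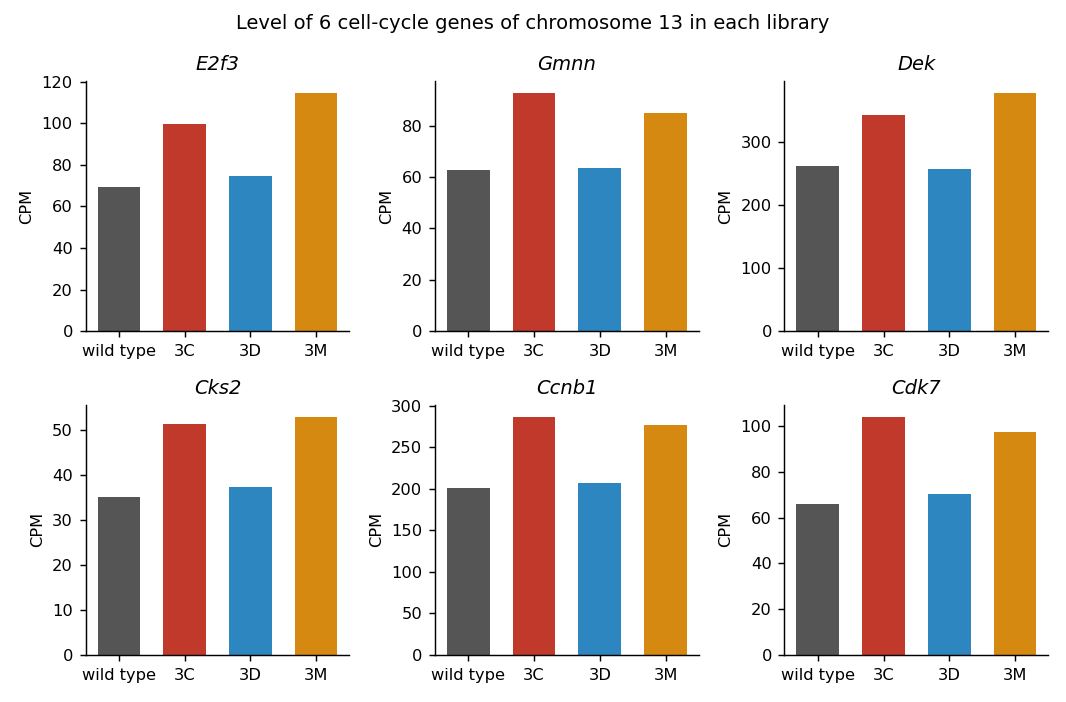
Level of each gene in CPM (vertical axis, from 0) in the wild-type library and in clones 3C, 3D and 3M (1 bar per library, so no error bar). In each panel the bars of 3C and 3M are taller than the other bars, and the 3D bar is near that of wild type, from 0.983 times its height for *Dek* to 1.08 times for *E2f3*.

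*E2f3* encodes an activating E2F factor that turns on S-phase genes. It lies at chr13:29906575-29986064. The wild-type library held 1322 counts of it, and 3C, 3D and 3M held 1346, 1086 and 1776, which are 69.3 CPM for wild type and 99.8, 74.6 and 115 CPM for the clones. The clones averaged 96.3 ± 20.2 CPM (SD, n = 3), a log2 fold change of 0.48 (SE 0.23), and their coefficient of variation of 21.0% was the highest of the 6 genes. Clone 3M stood highest and 3D lowest, and the wild-type level lay below all 3 clones. On the log2 scale the clones differed from wild type by 0.53 in 3C (interval 0.42 to 0.64), 0.11 in 3D (-0.01 to 0.22) and 0.72 in 3M (0.62 to 0.83). The activating paralog *E2f1*, on chromosome 2, had the same order of libraries at much smaller differences, 0.07, 0.02 and 0.08 in 3C, 3D and 3M. The other, *E2f2* on chromosome 4, differed by -0.03, -0.17 and -0.28, with 3M lowest. *Tfdp1*, the DNA-binding partner of E2F factors, differed by -0.04, -0.02 and -0.05. *Rb1*, the pocket protein that restrains E2Fs, differed by 0.39, 0.32 and 0.56, and it lies on chromosome 14, whose tested genes had medians of 0.34, 0.34 and 0.35.

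*Gmnn* encodes geminin, which binds the licensing factor CDT1 and blocks new licensing of origins after S phase has begun. It lies at chr13:24751845-24761937. Its counts were 1197 in wild type and 1250, 925 and 1315 in 3C, 3D and 3M, or 62.7 CPM and 92.7, 63.5 and 84.8 CPM. The clones averaged 80.3 ± 15.1 CPM (SD, n = 3), and the log2 fold change was 0.36 (SE 0.21). Clone 3D was within 1 CPM of wild type, and 3C stood above 3M. The log2 differences from wild type were 0.56 (0.45 to 0.68) in 3C, 0.02 (-0.11 to 0.14) in 3D and 0.43 (0.32 to 0.55) in 3M. *Cdt1*, its binding partner on chromosome 8, was also above wild type in all 3 clones, by 0.23, 0.14 and 0.29 on the log2 scale (log2 fold change 0.22, SE 0.08, adjusted p = 0.44 from edgeR). *Cdc6* and *Orc1*, which load the replicative helicase together with CDT1, differed by 0.23, 0.06 and 0.16 and by -0.08, -0.16 and -0.01.

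*Dek* encodes an abundant chromatin protein that binds histones and DNA and is found with DAXX. It lies at chr13:47084767-47107530 and had the highest level of the 6 genes per kilobase of exon. Wild type had 4986 counts and 3C, 3D and 3M had 4619, 3741 and 5845, or 261 CPM and 342, 257 and 377 CPM. The clones averaged 325 ± 61.8 CPM (SD, n = 3), with a log2 fold change of 0.32 (SE 0.21), the smallest of the 6. The 3D library was the lowest of all 4 and wild type was next, so *Dek* alone among the 6 fell on the 2 sides of wild type that the choice of genes described, above it in 3C and 3M and not above it in 3D. That sign pattern was held by 31.1% of the tested genes of chromosome 13 and by 8.88% of all genes tested. The log2 differences were 0.39 (0.33 to 0.45) in 3C, -0.02 (-0.09 to 0.04) in 3D and 0.53 (0.47 to 0.58) in 3M. *Daxx*, the histone H3.3 chaperone, differed by -0.05, -0.01 and -0.15. *Atrx*, the chromatin remodeller that works with DAXX and lies on the X chromosome, differed by 0.39, 0.36 and 0.39 (log2 fold change 0.38, SE 0.06, adjusted p = 0.19 from edgeR). Without 3D its log2 fold change was much the same, 0.39 (SE 0.07). The annotation puts the last 513 bases of *Dek* over *Kdm1b* on the opposite strand. The unstranded counts of *Dek*, which drop read pairs that overlap both genes, were between 80.4% and 82.3% of its strand-specific counts in the 4 libraries, so the loss was alike in all of them.

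*Cks2* encodes a small CDK-binding subunit that helps CDK complexes phosphorylate their targets. It lies at chr13:51645232-51650662. It had the fewest counts of the 6, with 669 in wild type and 691, 543 and 820 in 3C, 3D and 3M, or 35.1 CPM and 51.2, 37.3 and 52.9 CPM. The clones averaged 47.1 ± 8.57 CPM (SD, n = 3), a log2 fold change of 0.43 (SE 0.21). Clones 3C and 3M were within 2 CPM of each other and 3D was near wild type. The log2 differences were 0.55 (0.39 to 0.70) in 3C, 0.09 (-0.08 to 0.25) in 3D and 0.59 (0.44 to 0.74) in 3M. Its paralog *Cks1b*, on chromosome 3, lay slightly below wild type in all 3 clones, by -0.10, -0.13 and -0.11. *Skp2*, the ubiquitin ligase subunit that CKS1 serves, differed by 0.19, -0.11 and -0.01, and *Cdk2* by 0.11, -0.08 and 0.11.

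*Ccnb1* encodes cyclin B1, the main mitotic cyclin. It lies at chr13:100778739-100786486, close to *Cdk7*. Wild type had 3834 counts and the clones 3868, 3014 and 4285, or 201 CPM in wild type and 287, 207 and 276 CPM in 3C, 3D and 3M. The clones averaged 257 ± 43.4 CPM (SD, n = 3), with a log2 fold change of 0.35 (SE 0.19) and the lowest coefficient of variation of the 6 genes, 16.9%. Clones 3C and 3M lay close together and 3D lay near wild type. The log2 differences were 0.51 (0.45 to 0.58), 0.04 (-0.03 to 0.11) and 0.46 (0.40 to 0.52) in 3C, 3D and 3M. The other B-type cyclin, *Ccnb2* on chromosome 9, differed by 0.01, 0.23 and 0.05, with its highest value in 3D. *Cdk1*, the kinase that both cyclins activate, differed by 0.11, 0.09 and -0.06. The kinase that inhibits it, *Wee1*, differed by -0.10, -0.10 and 0.05, and the phosphatase that activates it, *Cdc25c*, by -0.22, -0.02 and -0.19. A processed pseudogene of *Ccnb1* is annotated on chromosome 7, and read pairs that match both places are not among the uniquely mapped counts.

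*Cdk7* encodes the catalytic subunit of the CDK-activating kinase. It lies at chr13:100697024-100730942. Its counts were 1258 in wild type and 1404, 1023 and 1510 in 3C, 3D and 3M, or 65.9 CPM and 104, 70.3 and 97.4 CPM. The clones averaged 90.6 ± 17.9 CPM (SD, n = 3), a log2 fold change of 0.46 (SE 0.22). Clone 3C stood highest, and 3D was lowest of the clones and just above wild type. The log2 differences were 0.66 (0.55 to 0.77) in 3C, 0.09 (-0.03 to 0.21) in 3D and 0.56 (0.45 to 0.67) in 3M. Of its partners in the kinase, *Ccnh* (cyclin H) also lies on chromosome 13 and differed by 0.48, 0.25 and 0.56 (log2 fold change 0.43, SE 0.14, adjusted p = 0.42 from edgeR). *Mnat1* (MAT1), on chromosome 12, lay below wild type in all 3 clones, by -0.35, -0.15 and -0.20 (log2 fold change -0.23, SE 0.12, adjusted p = 0.55 from edgeR). The TFIIH helicases *Ercc2* and *Ercc3* differed by -0.11, -0.15 and -0.30 and by -0.07, -0.09 and -0.01. The annotation puts 217 bases of *Cdk7* over *Ccdc125*, and its unstranded counts were between 99.9% and 100.1% of the strand-specific ones. The ratio of *Ccnb1* to *Cdk7* was between 2.42 and 2.68 in CPM per kilobase of exon over the 4 libraries, highest in wild type.

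**Figure D2:**
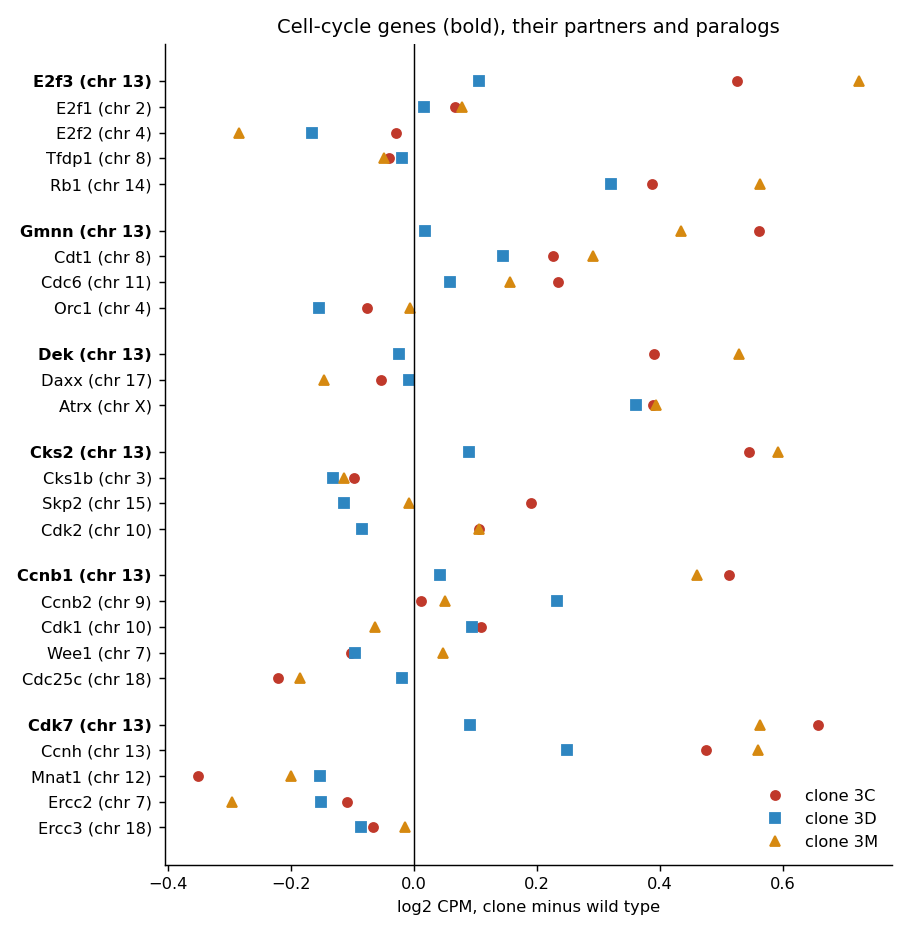
Log2 CPM difference of each clone from wild type (horizontal axis, 1 point per clone) for the 6 cell-cycle genes in bold and, under each, its partners and paralogs with their chromosomes. Points of 3C and 3M lie between 0.39 and 0.72 for the 6 genes, and most partners on other chromosomes lie within 0.3 of wild type, apart from *Rb1* on chromosome 14, *Atrx* on the X chromosome and *Mnat1* in 3C.

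Per kilobase of exon, the level followed the same order in all 4 libraries, *Dek*, *Cks2*, *Ccnb1*, *Gmnn*, *Cdk7* and *E2f3*, with 82.0, 50.7, 47.6, 42.8, 17.8 and 12.8 CPM per kilobase in wild type. The clones' values of *Dek* (80.7 to 118 CPM per kilobase) did not overlap those of *Cks2* (53.9 to 76.4), nor those of *Gmnn* the values of *Cdk7*. The ranges over the clones overlapped for the neighbours *Cks2* and *Ccnb1*, *Ccnb1* and *Gmnn*, and *Cdk7* and *E2f3*. Within a library these pairs still kept their order, at ratios from 1.06 to 1.17, from 1.07 to 1.13 and from 1.25 to 1.53. Among 12653 tested genes with an exon length, the wild-type level per kilobase lay from the 73.5 percentile (*E2f3*) to the 96.7 percentile (*Dek*), so all 6 belong to the more highly expressed genes of these cells.

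The question put to these genes was which of them follow the level of their chromosome as a whole and which are buffered against it. The 512 tested genes of chromosome 13 had median log2 differences from wild type of 0.48, 0.03 and 0.48 in 3C, 3D and 3M, or 1.39, 1.02 and 1.40 times wild type, and 87.5%, 55.5% and 88.5% of them were above it. Over the 17 autosomes other than 13 and 14, with 11780 genes, no chromosome's median in any clone lay outside the range from -0.071 to 0.026. The medians of the 6 genes, 0.54, 0.07 and 0.55, were close to those of the chromosome. In 3C the genes lay from 0.09 below its median (*Dek*) to 0.18 above it (*Cdk7*), in 3D from 0.05 below (*Dek*) to 0.08 above (*E2f3*), and in 3M from 0.05 below (*Gmnn*) to 0.24 above (*E2f3*). In 15 of the 18 cases the chromosome's median lay inside the gene's counting interval. That interval is wider for genes with fewer counts, and the share over the chromosome's other genes was not computed. All 18 cases share 1 wild-type library and the 6 genes were chosen on these counts, so the 15 of 18 is a description only. The exceptions were *Dek* in 3C, below the median at the 38.3 percentile of the chromosome's genes, *Cdk7* in 3C at the 77.5 percentile and *E2f3* in 3M at the 84.6 percentile. None of these was in the outer 10% of the chromosome's genes.

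**Figure D3:**
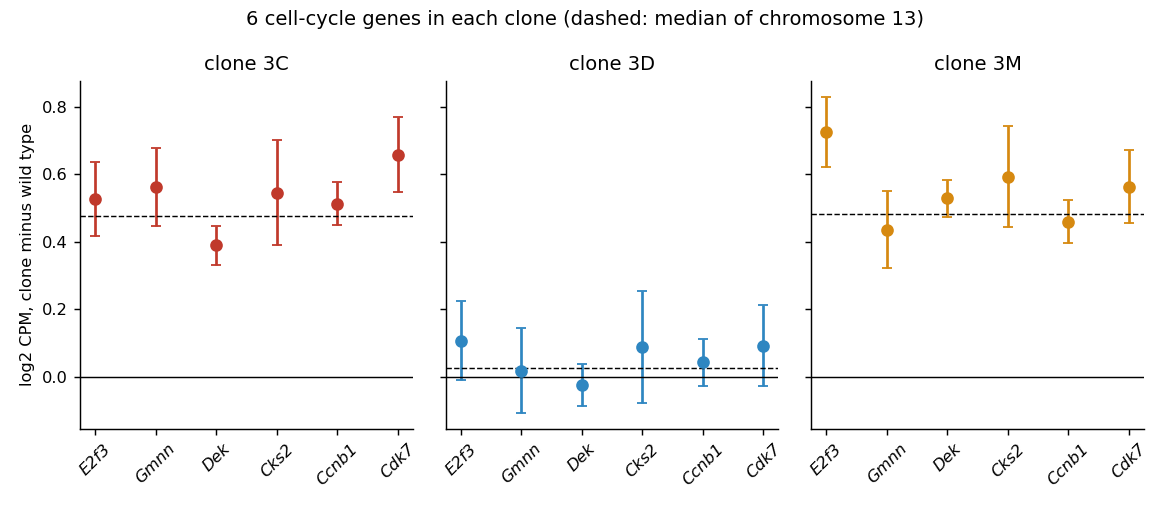
Log2 CPM difference of each gene from wild type (vertical axis) in clones 3C, 3D and 3M, with exact 95% intervals for counting error as bars, wild type as the solid line and the median of 512 genes of chromosome 13 as the dashed line. The points scatter around the dashed line in each clone, and the dashed line is outside the bar for *Dek* and *Cdk7* in 3C and for *E2f3* in 3M.

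A buffered gene would lie well below the chromosome's median in both 3C and 3M. At most 0.5 times the median difference in both clones was found for 77 of the 512 genes (15.0%) and for 0 of the 6, and a difference within 0.25 of the median in both for 50.6% of the chromosome's genes and for 6 of 6. Among 24 further tested genes of the chromosome, listed by role and described below, 1 was at or below 0.5 times and 66.7% were within 0.25. The 512 include 49 *Hist1* histone genes, which raise the 15.0%. Their medians of 0.00 in 3C and 0.12 in 3M lay under 0.5 times those of the chromosome. Since the 6 were chosen for being higher in these clones, a gene held at its wild-type level could not have been among them. The choice shaped both counts, so neither the 0 of the 6 nor the 6 of 6 says anything about cell-cycle genes in general. *Dek* came closest to wild type in 3C, at 0.39 (interval 0.33 to 0.45), where 0.5 times the chromosome's median is 0.24. That interval covers counting error only and not the variation between cultures, so it cannot decide whether *Dek* was buffered. The number of copies of chromosome 13 was not tested.

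**Figure D4:**
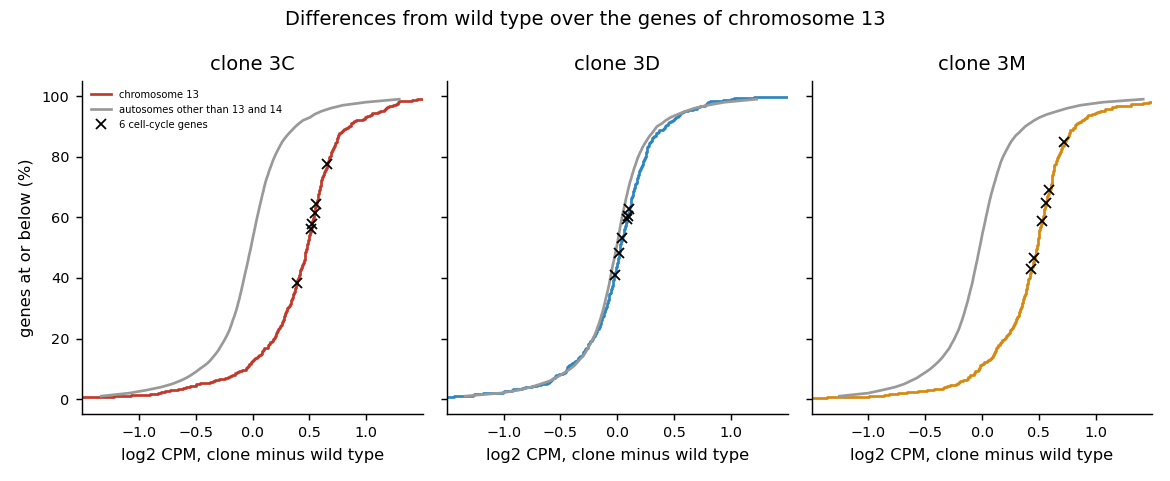
Share of genes (vertical axis, %) at or below each log2 CPM difference from wild type (horizontal axis), for 512 genes of chromosome 13 in colour and for genes of the autosomes other than 13 and 14 in grey, in each clone. The crosses of the 6 cell-cycle genes sit on the middle part of the coloured curve, which is shifted to the right of the grey curve in 3C and 3M and lies near it in 3D.

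The surroundings of the 6 genes were not all alike. Along chromosome 13 in windows of 20 Mb, the median differences ran from 0.46 to 0.58 in 3C and 3M in 5 of 6 windows, while the window from 20 to 40 Mb, which holds *Gmnn* and *E2f3*, had 0.23 in 3C and 0.33 in 3M. That window holds the large cluster of replication-dependent histone genes, and the 49 tested *Hist1* genes of the chromosome had medians of 0.00, 0.05 and 0.12 in 3C, 3D and 3M. Histone mRNAs of this kind lack a poly(A) tail and are made mainly in S phase. Of the 20 tested genes nearest to *Gmnn*, 12 were *Hist1* genes, and the 20 had medians of 0.10, 0.05 and 0.22, well under the 0.56 and 0.43 of *Gmnn* in 3C and 3M. Its 8 other neighbours, a set taken after the values were seen, had medians of 0.28, -0.11 and 0.40. The 20 neighbours of *E2f3* had medians of 0.48, 0.10 and 0.63, near its own values and in the same order of clones. Those of *Dek* had 0.51, -0.01 and 0.55, and those of *Cks2* had 0.29, -0.08 and 0.38, each below *Cks2* itself. *Ccnb1* and *Cdk7* lie close together, and their neighbours had medians of 0.42, -0.03 and 0.50 and of 0.42, -0.03 and 0.49.

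A further 24 genes of chromosome 13 were tested of 28 listed, and *Mcidas*, *Ccno*, *Gadd45g* and *Hus1b* had too few counts. The list holds genes of the cell cycle and DNA repair, and some of other roles, such as *Smad5*, *Nup153* and *Id4*. None of the 24 was called by edgeR (4 had an unadjusted p under 0.05), and their median log2 fold change was 0.37, against 0.01 for all genes tested. Their medians in 3C, 3D and 3M were 0.50, -0.05 and 0.54, and 24, 10 and 23 of the 24 lay above wild type. By the mean of the 3 clone differences, the highest was *Id4*, an inhibitor of helix-loop-helix factors, at 1.70, 1.03 and 2.06, with 47 wild-type counts and 75 to 165 counts per clone. Next were *Polk*, a translesion DNA polymerase, at 1.01, 0.15 and 0.90, and *Fancc*, a Fanconi anaemia protein, at 0.51, 0.31 and 0.82. The lowest by that mean were *Ercc8*, a transcription-coupled repair factor, at 0.16, -0.14 and -0.00, *Depdc1b* at 0.08, -0.19 and 0.27, and the CDK-like kinase *Cdk20* at 0.18, -0.19 and 0.45. By the log2 fold change instead, 2 genes added after their values were seen would take the place of *Fancc* and of *Cdk20*, namely *Plk2*, a polo-like kinase, among the highest (1.20, -0.51 and 0.92) and *Cdc14b*, a phosphatase, among the lowest (0.30, -0.13 and 0.28). *Ercc8* was the only one of the 24 at or below 0.5 times the chromosome's median in both 3C and 3M.

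The genes that act with these 6 elsewhere in the genome were listed by role. Of the 12 E2F, DP and pocket protein genes tested, 0 were called and 1 had an unadjusted p under 0.05, with a median log2 fold change of -0.04. The 14 origin licensing genes had 0 calls, 1 unadjusted p under 0.05 and a median of 0.03. The 13 G1 and S cyclins, their kinases and the Cks-Skp2 group had 0 calls, 2 such p and a median of 0.03, and the 13 S-phase targets of E2F also had 0, 2 and 0.03. The 17 genes of mitotic entry and exit had 0 calls, 0 such p and a median of 0.01. The 5 tested CDK inhibitors had 0 calls, 0 such p and a median of -0.15, and the 8 genes of TFIIH and the CDK-activating kinase had 0, 1 and -0.11. Over all 80 listed genes that lie off chromosome 13, edgeR called 0, and 6 (7.50%) had an unadjusted p under 0.05, against 10.3% of all genes tested. DESeq2 called 0 of them as well. Their quartiles of the log2 fold change were -0.07 and 0.09, and 75 of the 80 were under 0.3 in size. Over all genes tested the quartiles were -0.14 and 0.16, and 9618 of 13267 were under 0.3. The smallest adjusted p was that of *Ccnd3* (cyclin D3), with 318, 281 and 279 CPM in 3C, 3D and 3M against 216 CPM for wild type and a log2 fold change of 0.44 (SE 0.10, adjusted p = 0.25 from edgeR). Without 3D it was the 1 gene of these lists that was called (log2 fold change 0.47, SE 0.08, adjusted p = 0.0046 from edgeR).

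The genes whose pattern was most like that of each of the 6 were found by the root-mean-square distance over the 3 clone differences from wild type. For *Dek* the nearest 3 were *Pitrm1*, *Exoc2* and *Msh3*, and for *Cks2* they were *Poc5*, *Zfp367* and *Bdp1*, all 6 on chromosome 13. For *E2f3* they were *Adamtsl1* on chromosome 4, *Rnf103* on chromosome 6 and *Tbce* on chromosome 13. For *Gmnn* they were *Aggf1* on chromosome 13, *Hecw2* on chromosome 1 and *Lmo7* on chromosome 14. For *Ccnb1* they were *Ccdc173* on chromosome 2, *Abhd5* on chromosome 9 and *Lmo7*, and for *Cdk7* they were *Inf2* on chromosome 12 with *Zfp748* and *Eef1e1* on chromosome 13. The distances of these genes ranged from 0.0080 (*Ccdc173*) to 0.050 (*Tbce*) on the log2 scale. *Rnf103* and *Ccdc173* had identical differences in 3C (0.51) and in 3D (0.04), as can happen with equal low counts. The distance takes no account of counts. Among the 20 most like genes, 14 of those for *E2f3*, 10 for *Gmnn*, 11 for *Dek*, 19 for *Cks2*, 13 for *Ccnb1* and 17 for *Cdk7* were on chromosome 13, which holds 3.86% of the genes tested. The 6 genes were chosen for a pattern that the medians of chromosome 13 also have, so these counts follow in part from the choice. With 3 clones, such likeness rests on 3 numbers per gene.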

How the data were processed

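RNA was sequenced from 3 Morc3 rescue clones and 1 wild-type ES cell culture. The authors aligned read pairs to mm10 with STAR, and the deposited counts are uniquely mapped pairs per gene, without normalization. The sources used here do not name the gene annotation. The reverse-strand column was used, as the kit is directional (the forward column held at most 1.31% as many). Rows that name no gene held between 47.3% and 54.9% of all pairs and stayed out of library sizes and tests.

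The test was edgeR 4.0.16's quasi-likelihood test in R 4.3.3 (glmQLFit with legacy off, glmQLFTest), TMM, filterByExpr and Benjamini-Hochberg adjustment over all genes, with calls at an adjusted p of 0.01. The fit used all 4 libraries with no covariate. The common coefficient of variation between clones was 11.3%, and the clones are separate clones of 1 line. An SE is the log2 fold change over the square root of F. Log2 CPM differences used a prior count of 2. Intervals are exact (Clopper-Pearson, 95%). Positions and overlaps came from RefSeq GRCm38.p6 (22542 symbols matched, 1352 by a synonym, 160 not), exon lengths and the pseudogene from GENCODE. The steps were tested on simulated counts.

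The 6 genes and the lists were chosen with earlier results of these data known. Named genes are the 6, *Morc3*, listed partners and paralogs, list genes past the threshold, the 3 most like genes each, and the 3 highest and 3 lowest of the other chromosome 13 list by the mean clone difference. The alternatives tried were DESeq2 1.42.0, DESeq2 size factors, the unstranded column, TMM without chromosomes 13 and 14 or without genes over 1% of counts, no filter, at least 10 counts in every library, a prior count of 0.5, an adjusted p of 0.05, and each clone left out.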

Additional observations from a re-analysis of the deposited data

How the results depend on the processing

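Of 282 values recomputed under the alternatives, 276 stayed within 1.5 times (counts) or moved by less than the spread of the clones, and no log2 fold change or chromosome median reversed. The number of the 6 genes called went from 0 to between 0 and 6 when a clone was left out (6 without 3D), the number of listed genes off chromosome 13 called from 0 to between 0 and 1, and the number of all genes called from 1 to between 0 and 420 (420 without 3D, 0 without 3M). DESeq2 called 65 genes, and a filter of 10 counts in every library left 0. The chromosome 13 medians ranged from 0.46 to 0.49 in 3C, from 0 to 0.04 in 3D and from 0.47 to 0.50 in 3M. Of 162 recomputed differences between a gene and that median, 1 changed sign although it moved by less than that spread, that of *Gmnn* in 3D with no low-count filter (0.014, against -0.0073). Without *Hist1* genes, an alternative chosen after seeing the data, *Gmnn* exceeded its neighbours by 0.29, 0.13 and 0.03 in 3C, 3D and 3M. No paired analysis was possible because a group with 1 library has at most 1 replicate number in common with the clones. With 1 wild-type library, the spread of wild type is unknown.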
